A study of Mus musculus with 6 samples.

Results

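The genes described here make the machinery that copies DNA in S phase. The list names 48 genes, and 46 of them were measured by an array feature annotated to that gene alone, out of 22180 such genes in all. Members were taken by symbol, and the brightest feature over the 6 arrays stood for a gene with more than 1. The remaining pair, Rfc4 and Ccne2, shares its only features with a second gene and is described separately. RNA came from hair follicle stem cells of mouse skin, isolated at postnatal day 49 by flow sorting for CD34 and α6-integrin, and was hybridised to Affymetrix GeneChip Mouse Gene 2.0 ST arrays. There were 3 wild-type (WT) arrays and 3 arrays of K14-sPLA2-IIA transgenic (TG) mice, whose transgene for secreted phospholipase A2 group IIA stands under the keratin 14 promoter, which drives expression in basal keratinocytes, those of the outer root sheath included. The sources used here give neither strain nor sex. Values are quoted in the order of replicate numbers 1, 2 and 3. The labels do not say whether replicates were separate animals or pools, so the p-values cover the spread between these arrays, which may be technical.

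Before a chromosome can be copied, the origin recognition complex with Cdc6 and Cdt1 loads the ring-shaped MCM helicase onto DNA in G1. In S phase, Cdc45 and the GINS complex turn that ring into an active helicase, and the primase, the polymerases and the Pcna clamp follow it. E2F transcription factors, released from the retinoblastoma proteins, switch on many of these genes at the start of S phase. Bulge stem cells divide rarely while the follicle rests, and at this age the dorsal follicles of normal mice are usually in rest.

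The level of Pla2g2a, the gene of the transgene's enzyme, was 6.77, 5.75 and 5.90 (log2) in WT and 12.61, 12.57 and 12.39 in TG. The arrays thus followed their labels, with a difference of 6.38 ± 0.27 (SE; adjusted p = 0.00255 in limma, and 0.0650 without TG array 1). Of the sort markers, Itga6 ranged from 10.005 to 10.49 and Cd34 from 9.65 to 13.07 (log2) over the 6 arrays. Cd34 was highest on WT array 3 (13.07) and TG array 3 (12.42), so the arrays of a genotype were not alike in it. Samples here are bulk RNA, in which a change in the share of cycling cells and a change in RNA per cycling cell cannot be told apart.

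The promoters of 8 members are shown, 4 with an E2F motif before the start and 4 without. Those 4 are a part of the 10 members with such a motif. Cdc6, Dnmt1, Gins3, Mcm5, Mcm7 and Uhrf1 also held one and are not shown. Their TG minus WT differences ran from 0.18 (Gins3) to 0.58 (Uhrf1) on the log2 scale. RefSeq windows of assembly GRCm38.p6, from 250 bases before to 50 bases after a gene's start, were matched by symbol for 39 of the 46 measured members (47 windows, since 6 genes had several). The 150 bases that end at the start are printed 5′ to 3′ on the gene's strand, with matches to an E2F motif in capitals. The motif was TTTCCCGC or TTTGGCGC or TTTCGCGC or TTTGCCGC, searched on both strands, and overlapping matches run together. Mcm6 (chr1:128359706-128359855, minus strand) had 3 matches, the nearest beginning 47 bases before the start. Orc1 (chr4:108579304-108579453, plus strand) had 1, Rfc3 (chr5:151651209-151651358, minus strand) had 1, and Pola1 (chrX:93632156-93632305, minus strand) had 1. Prim1 (chr10:128015065-128015214, plus strand) and Mcm10 (chr2:5012792-5012941, minus strand), the members with the smallest p, had 0 in this stretch. Pold3 (chr7:100121503-100121652, minus strand) and Orc6 (chr8:85299482-85299631, plus strand), the members with a difference below 0, had 0 too.
Mcm6: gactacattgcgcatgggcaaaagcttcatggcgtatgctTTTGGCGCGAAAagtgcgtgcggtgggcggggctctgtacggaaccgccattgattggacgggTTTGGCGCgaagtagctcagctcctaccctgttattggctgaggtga
Orc1: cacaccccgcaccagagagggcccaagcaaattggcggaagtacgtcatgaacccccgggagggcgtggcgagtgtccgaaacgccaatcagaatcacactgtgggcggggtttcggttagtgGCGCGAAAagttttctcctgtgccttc
Rfc3: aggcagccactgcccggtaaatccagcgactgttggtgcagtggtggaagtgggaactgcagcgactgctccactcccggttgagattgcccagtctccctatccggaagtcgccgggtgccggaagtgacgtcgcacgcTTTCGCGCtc
Pola1: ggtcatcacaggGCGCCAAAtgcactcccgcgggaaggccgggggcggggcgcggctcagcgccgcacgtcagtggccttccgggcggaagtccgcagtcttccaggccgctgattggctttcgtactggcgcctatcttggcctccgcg
Prim1: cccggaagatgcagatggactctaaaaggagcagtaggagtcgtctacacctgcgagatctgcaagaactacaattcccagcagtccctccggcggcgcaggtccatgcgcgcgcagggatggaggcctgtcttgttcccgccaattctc
Mcm10: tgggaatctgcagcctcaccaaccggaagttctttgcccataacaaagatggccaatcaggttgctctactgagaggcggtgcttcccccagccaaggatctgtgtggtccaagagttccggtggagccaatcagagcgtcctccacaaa
Pold3: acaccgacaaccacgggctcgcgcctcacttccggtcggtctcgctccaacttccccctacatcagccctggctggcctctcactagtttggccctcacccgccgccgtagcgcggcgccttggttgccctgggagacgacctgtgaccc
Orc6: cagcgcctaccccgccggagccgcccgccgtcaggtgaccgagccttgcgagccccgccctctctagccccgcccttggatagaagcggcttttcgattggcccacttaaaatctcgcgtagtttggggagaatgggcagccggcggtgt

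An E2F motif stood in 34.0% of the members' windows (16 of 47) and in 2.85% of the windows of all tested genes (588 of 20611). Of all 32851 windows in the table, 2.26% held one. The other replication genes described further down had one in 32.8% of their windows (19 of 58), and genes of G2 and M phase in 6.25% (1 of 16). The cell cycle homology region, a promoter element of late cell cycle genes (TTTGAA or TTCGAA, both strands), stood in 17.0% of members' windows (8 of 47), in 17.0% of tested genes' windows and in 81.3% of G2 and M phase windows (13 of 16). With only the bases before the start, the element stood in 8 of 16 G2 and M phase windows, while the share of members' windows stayed at 17.0%, against 15.2% of tested genes' windows. A CCAAT box (CCAAT, both strands) stood in 59.6% of members' windows against 37.7% of tested genes' windows, and a GC box (GGGCGG, both strands) in 72.3% against 46.5%. None of these 4 motifs contains another. A match is a run of letters and not a measured binding site, and no test was run on these shares. With only the bases before the start, 10 of the 39 genes held an E2F motif, beside 459 of 16990 tested genes. The median TG minus WT difference of these 10 was 0.45 (log2), and that of the other 29 was 0.35. Their ranges overlapped (0.18 to 0.58 and -0.064 to 0.69).

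Most replication genes read slightly higher in TG cells, and none passed the test. The difference was above 0 for 44 of 46 measured members, where 47.9% of all genes were above 0. The median member differed by 0.36 (log2), against a median of -0.0075 over all genes. Members ranged from -0.064 for Pold3 to 0.69 for Cdc45, and 3 of them (Cdc45, Pole2 and Mcm10) were at least 1.5-fold higher, as were 1.51% of all genes. After Benjamini-Hochberg adjustment over all genes, 0 members passed 0.05 in limma, where 0.00451% of all genes (Pla2g2a alone) did, and each member's adjusted p was 0.99996.

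At an unadjusted p under 0.05, 7 members were higher in TG (15.2% of the measured members) and 0 were lower, where 1.93% of all genes were higher and 0.843% lower. These 7 were Prim1, Mcm10, Mcm7, Cdc45, Rfc3, Pole2 and Mcm4. For 10 members (21.7%) each TG array exceeded each WT array, and for 0 each lay below, where the shares of all genes were 3.99% and 3.21%. With the replicate number as a block, 10 members were higher at an unadjusted p under 0.05, where 4.59% of all genes were, and the lowest adjusted p among members was 0.538 in limma. The count of 7 moved with single arrays: 3 members were left on dropping WT array 3 and 3 on dropping TG array 1, where 2.61% and 0.843% of all genes were higher. Dropping TG array 3 left 2 and dropping TG array 2 gave 19, beside 1.98% and 2.48% of all genes. The count was 4 with quantile normalization (1.70% of all genes), 4 with no moderation (1.88%) and 15 with array weights (7.90%). Mcm10 and Prim1 were among the members counted without each array in turn.

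**Figure D1:**
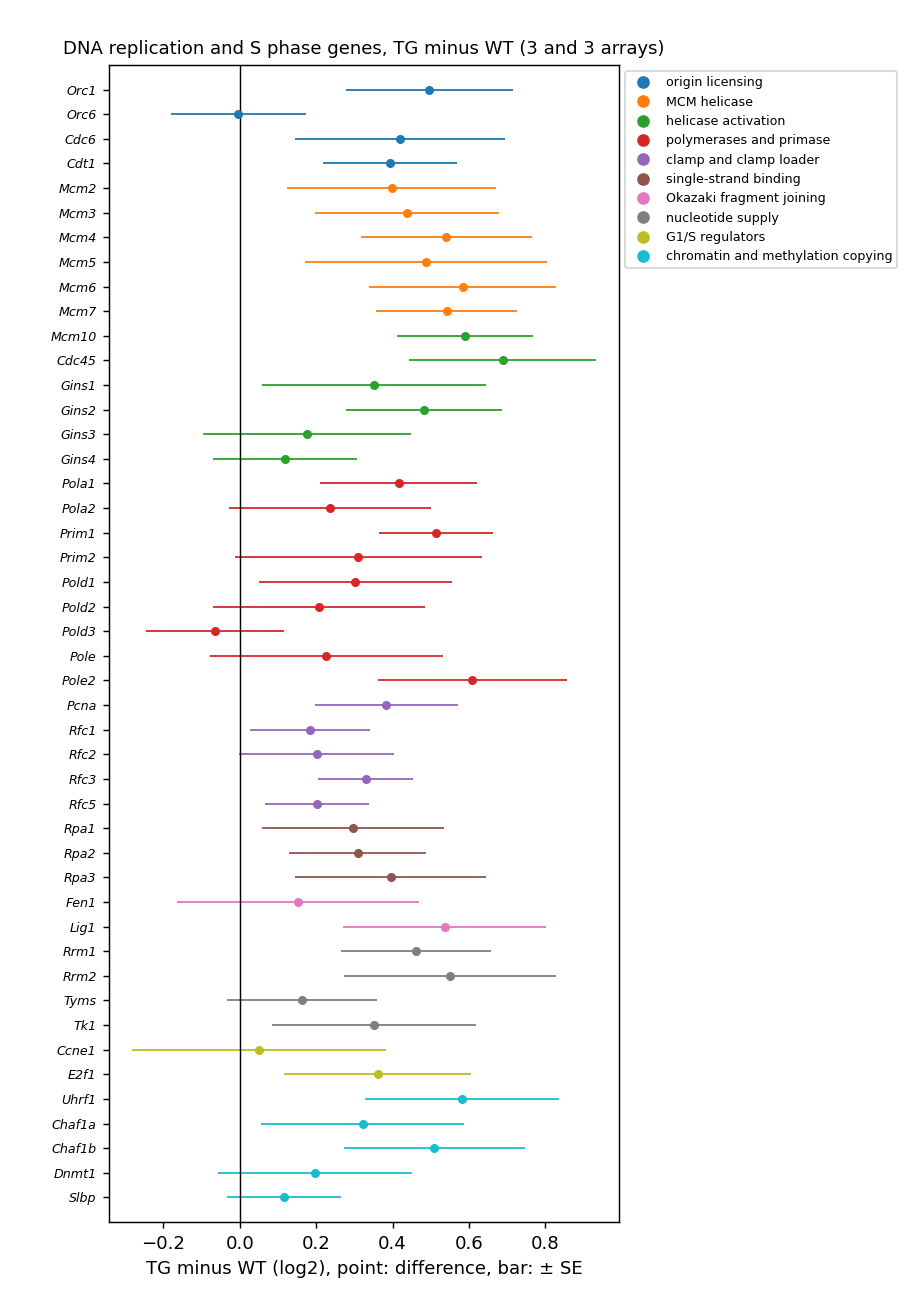
The horizontal axis gives TG minus WT on the log2 scale for each of the 46 measured members, coloured by role, with points for the difference and bars for ± 1 SE of the moderated limma fit on 3 WT and 3 TG arrays. Of the points, 44 lie right of 0, with Cdc45 farthest at 0.69, while Pold3 (-0.064) and Orc6 lie left of it.

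Among the genes that license origins, Orc1, which encodes the largest subunit of the origin recognition complex, read 6.66, 6.88 and 6.15 (log2) in WT and 7.15, 6.84 and 7.20 in TG. TG array 2 lay just below WT array 2, so the genotypes overlapped, and the difference was 0.50 ± 0.22 (SE). Cdt1, which brings the helicase to the origin, differed by 0.39 ± 0.18 with no overlap of the genotypes. Cdc6, the loading ATPase, differed by 0.42 ± 0.28 and had its highest value on TG array 1. Orc6, a small subunit of the recognition complex, read 8.27, 8.001 and 8.38 in WT and 8.24, 7.96 and 8.44 in TG. Arrays with the same number were nearly level in it, and the difference was -0.0036 ± 0.18.

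Each of the 6 subunit genes of the MCM helicase, Mcm2 to Mcm7, had a difference above 0, between 0.40 and 0.58 (log2), with a median of 0.51. Mcm2 read 9.63, 9.68 and 8.91 in WT and 9.66, 9.54 and 10.21 in TG, a difference of 0.40 ± 0.27 (SE). Mcm3 read 9.71, 9.55 and 9.09 in WT and 9.999, 9.49 and 10.18 in TG, a difference of 0.44 ± 0.24. Mcm5 read 10.29, 9.95 and 9.29 in WT and 10.25, 9.95 and 10.79 in TG, a difference of 0.49 ± 0.32. In Mcm2, Mcm3 and Mcm5 the genotypes overlapped: WT array 3 was lowest, TG array 3 highest, and TG array 2 stood no higher than WT array 1.

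The genotypes did not overlap in Mcm4, Mcm6 and Mcm7. Mcm4 read 9.14, 9.47 and 9.23 in WT and 9.70, 9.49 and 10.27 in TG (log2), a difference of 0.54 ± 0.22 (SE) with an unadjusted p of 0.0483 in limma. Mcm6, whose promoter above held 3 E2F matches, read 9.70, 9.89 and 9.06 in WT and 10.06, 9.95 and 10.38 in TG, a difference of 0.58 ± 0.25. Mcm7 read 8.66, 8.90 and 8.47 in WT and 9.42, 8.94 and 9.30 in TG, a difference of 0.54 ± 0.18 with an unadjusted p of 0.0229 in limma. In each of these genes TG array 2 was the lowest of the TG arrays, less than 0.1 above the highest WT array. Mcm2 and Mcm5 turned to -0.053 and -0.023 without both arrays numbered 3, while Mcm4 kept 0.29 and Mcm7 0.40.

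Of the genes that activate the helicase, Mcm10, a scaffold that the firing origin needs, read 7.55, 7.27 and 7.08 in WT and 7.98, 7.65 and 8.04 (log2) in TG. All TG arrays lay above all WT arrays, and the difference was 0.59 ± 0.18 (SE; unadjusted p = 0.0139 in limma). Cdc45, a part of the active helicase, had the largest difference of the members, 0.69 ± 0.24, or 1.61-fold. It read 8.004, 7.71 and 7.21 in WT and 8.30, 8.07 and 8.62 in TG, without overlap. The GINS subunits, which complete the active helicase, differed unequally: Gins2 by 0.48 ± 0.20, Gins1 by 0.35 ± 0.29, Gins3 by 0.18 ± 0.27 and Gins4 by 0.12 ± 0.19. Gins3 and Gins4 turned below 0 without both arrays numbered 3 (-0.14 and -0.0075).

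Primase makes the RNA primer that each new strand starts from, and its catalytic subunit gene Prim1 had the smallest p of the members. Prim1 read 7.86, 8.22 and 8.07 (log2) in WT and 8.57, 8.42 and 8.70 in TG, a difference of 0.51 ± 0.15 (SE; unadjusted p = 0.0117 in limma). The genotypes did not overlap, and without both arrays numbered 3 the difference was 0.46. Its partner Prim2, the regulatory subunit, differed by 0.31 ± 0.32 and turned to -0.22 without those arrays. Pola1 and Pola2, the catalytic and accessory subunits of polymerase alpha, differed by 0.42 ± 0.21 and 0.24 ± 0.26.

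Polymerase epsilon copies the leading strand and polymerase delta the lagging strand. Pole2, an accessory subunit of epsilon, read 7.26, 7.77 and 7.998 (log2) in WT and 8.45, 7.92 and 8.49 in TG. TG array 2 lay below WT array 3, and the difference of 0.61 ± 0.25 (SE; unadjusted p = 0.0446 in limma) was 0.67 without both arrays numbered 3. Pole, the catalytic subunit, differed by 0.23 ± 0.30. The delta subunits Pold1 (catalytic) and Pold2 differed by 0.30 ± 0.25 and 0.21 ± 0.28. Pold3, also a subunit of delta, read 8.97, 9.01 and 9.49 in WT and 9.18, 8.94 and 9.15 in TG. It was the member that went farthest the other way, with its highest value on WT array 3 and a difference of -0.064 ± 0.18, which turned to 0.11 without that array.

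Pcna, the sliding clamp that holds polymerases on DNA, read 11.71, 11.69 and 11.20 (log2) in WT and 12.12, 11.78 and 11.85 in TG. The genotypes did not overlap, and the difference was 0.38 ± 0.19 (SE). Rfc3, a subunit of the clamp loader, read 8.65, 8.58 and 8.58 in WT and 9.04, 8.80 and 8.96 in TG, without overlap, a difference of 0.33 ± 0.12 (unadjusted p = 0.0339 in limma). Its WT arrays spread little (SD 0.042, n = 3). The other loader genes measured by themselves, Rfc1, Rfc2 and Rfc5, differed by 0.18 ± 0.16, 0.20 ± 0.20 and 0.20 ± 0.14, with overlap in each.

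Replication protein A coats single-stranded DNA, and its 3 subunit genes differed by a like amount: Rpa1 by 0.30 ± 0.24 (log2, SE), Rpa2 by 0.31 ± 0.18 and Rpa3 by 0.39 ± 0.25. Rpa2 read 8.39, 8.13 and 8.12 in WT and 8.73, 8.20 and 8.63 in TG. TG array 2 fell inside the WT range. Of the genes that finish Okazaki fragments, the ligase gene Lig1 read 9.79, 9.56 and 8.98 in WT and 9.95, 9.65 and 10.33 in TG, a difference of 0.54 ± 0.27. Fen1, the flap nuclease, differed by 0.15 ± 0.32, and TG array 1 was its lowest array.

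Ribonucleotide reductase makes the building blocks of DNA. Rrm1, its large subunit, read 8.20, 8.42 and 8.35 (log2) in WT and 8.75, 8.46 and 9.15 in TG, a difference of 0.46 ± 0.20 (SE) without overlap. Rrm2, the small subunit, differed by 0.55 ± 0.28 with overlap. The thymidine kinase gene Tk1 differed by 0.35 ± 0.27 and the thymidylate synthase gene Tyms by 0.16 ± 0.20.

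Of the regulators of S phase entry, E2f1 read 7.49, 7.23 and 7.50 (log2) in WT and 7.61, 7.41 and 8.29 in TG, a difference of 0.36 ± 0.24 (SE). TG array 2 lay inside the WT range, and TG array 3 was highest. Ccne1, which encodes cyclin E1, differed by 0.051 ± 0.33 and was highest on WT array 1. Among the genes that copy chromatin, Uhrf1, which guides the maintenance methyltransferase to new DNA, read 9.46, 9.15 and 8.66 in WT and 9.75, 9.33 and 9.94 in TG, a difference of 0.58 ± 0.25. TG array 2 lay between WT arrays 1 and 2. The methyltransferase gene Dnmt1 differed by 0.20 ± 0.25, with its highest value on WT array 2. The histone chaperone genes Chaf1b and Chaf1a differed by 0.51 ± 0.24 and 0.32 ± 0.26, and Slbp, which binds the stem-loop of histone mRNA, by 0.12 ± 0.15.

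**Figure D2:**
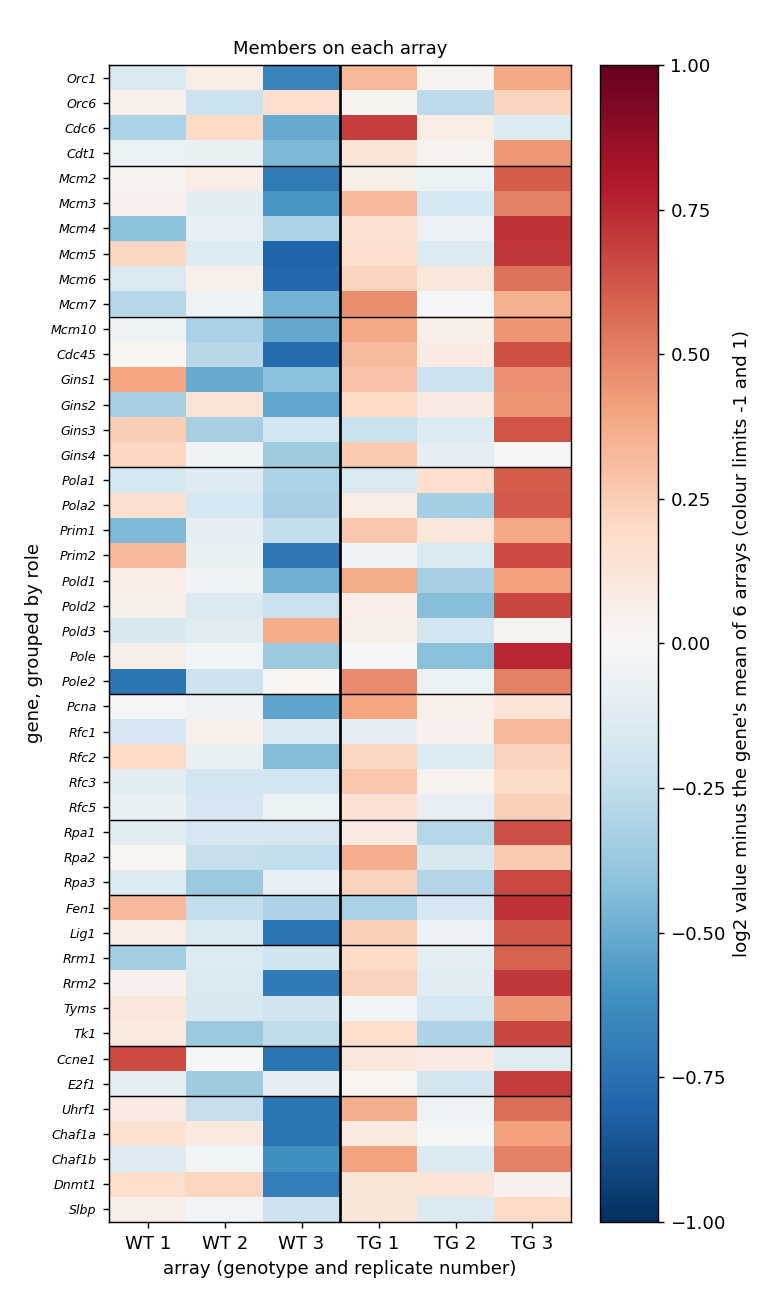
Rows are the 46 measured members grouped by role, columns the 6 arrays, and colour gives the log2 value minus the gene's own mean of 6 arrays. WT array 3 is the lowest array for 27 members and TG array 3 the highest for 37, while TG array 2 is close to the WT arrays.

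The TG arrays were not alike in these genes. TG array 3 lay above every WT array for 41 of 46 members, TG array 1 for 30 and TG array 2 for 11, where the shares of all genes were 23.3%, 22.9% and 21.4%. TG array 2 lay within the WT range for 29 of 46 members and below it for 6. Of all genes, 57.9% lay within that range on TG array 2 and 20.7% below it. TG array 3 was the highest array for 37 members (80.4%, against 18.6% of all genes), and WT array 3 the lowest for 27 (58.7%, against 25.9%). Both held at once for 20 members, or 43.5%, against 2.76% of all genes.

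Set against the array with the same replicate number, TG exceeded WT in 34 of 46 members for number 1, in 24 for number 2 and in 45 for number 3. These were 73.9%, 52.2% and 97.8% of the members, where the shares of all genes were 45.5%, 49.9% and 49.6%. The median member differed by 0.19 (log2) within number 1, 0.029 within number 2 and 0.88 within number 3, and the medians over all genes were -0.029, -0.0002 and 0. Within number 3 the differences of members ranged from -0.34 for Pold3 to 1.51. That difference was the largest of the 3 for 41 members, against 37.2% of all genes. Without both arrays numbered 3, the median of the members was 0.11, with 30 of 46 above 0. At an unadjusted p under 0.05, 2 of the 46 (Prim1 and Pole2) were then higher, beside 3.32% of all genes. With 1 array per genotype and number, whether the numbers differ was not tested.

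**Figure D3:**
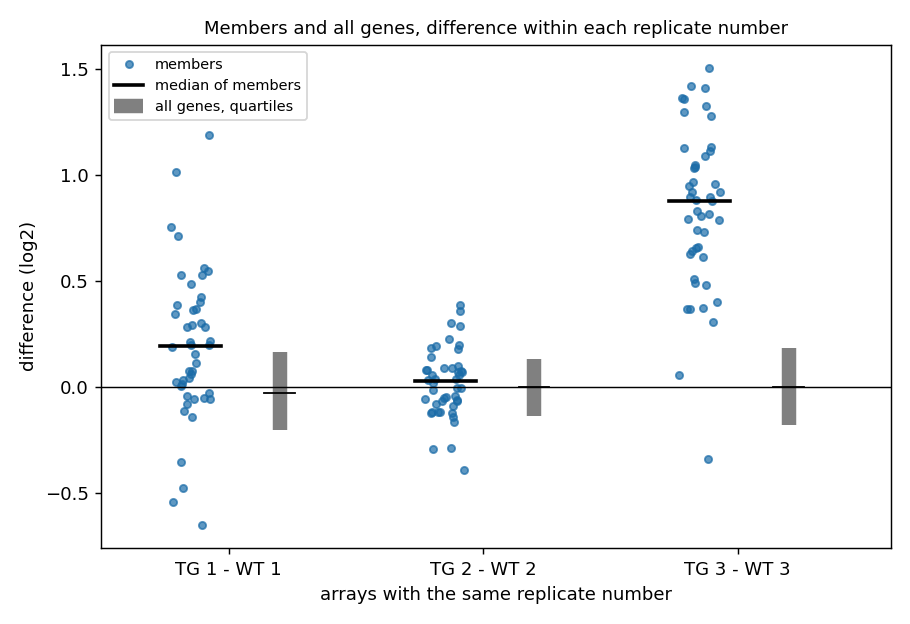
Each blue point is 1 member's TG minus WT difference (log2) between the arrays that share a replicate number, black bars are the medians of the 46 members, and grey bars span the quartiles of all 22180 genes. The medians are 0.19, 0.029 and 0.88 for numbers 1, 2 and 3, while the grey bars stay around 0.

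Arrays numbered 3 also differed from the mean of arrays 1 and 2 of their genotype in markers of cell type. Values given for array 3 here are array 3 minus that mean. The mean of 12 measured follicle stem cell markers was higher on array 3 by 1.25 (log2) in WT and 0.51 in TG. In TG it stood above array 2 (9.80) only, and array 1 (10.85) was level with array 3 (10.84). The mean of 10 suprabasal epidermis markers was lower there, by -1.73 and -1.57, and that of 10 T cell and haematopoietic markers by -1.36 and -1.59. The mean of the members was lower on WT array 3, by -0.33, and higher on TG array 3, by 0.40. The mean of 8 melanocyte markers had the members' signs, at -0.81 on WT array 3 and 0.24 on TG array 3. The means of the other marker lists had 1 sign in both genotypes: macrophage and Langerhans cell (-0.35 and -0.48), hair matrix and germ (-0.28 and -0.28), fibroblast (0.32 and 0.37) and endothelium (0.51 and 0.42). TG array 1 read 10.85 for the mean of the stem cell markers, close to 10.99 on WT array 3 and 10.84 on TG array 3, against 9.73 to 9.80 on the remaining arrays. Of the stem cell markers, 11 of 12 had a TG minus WT difference above 0, with a median of 0.34 beside the members' 0.36, and 0 were at an unadjusted p under 0.05 in limma. Of the suprabasal markers 0 of 10 had a TG minus WT difference above 0, and of the T cell and haematopoietic markers 0 of 10, with 0 of each at an unadjusted p under 0.05 in limma. With the replicate number as a block, 4 of the 10 suprabasal markers (Cdsn, Aloxe3, Flg2 and Dsc1, named after their values were seen) were lower at that level, beside 3.86% of all genes. Also lower were 2 of 9 hair matrix and germ and 1 of 10 macrophage and Langerhans cell markers. In that fit 3 of 7 fibroblast, 1 of 7 endothelium and 1 of 9 hair matrix and germ markers were higher, beside 4.59% of all genes. The stem cell, T cell and melanocyte lists had 0 either way. The suprabasal mean ran from 10.17 to 11.97 over the WT arrays and from 9.62 to 11.78 over the TG arrays, and the T cell mean from 7.06 to 8.61 and from 6.72 to 8.96. Markers of macrophages and Langerhans cells (4 of 10 above 0), melanocytes (2 of 8), fibroblasts (6 of 7), endothelium (4 of 7) and hair matrix and germ (3 of 9) had median differences between -0.16 and 0.25. The part of these cells in the members' differences was not tested. Principal component 1 of the 6 arrays, with 64.6% of the variance, set both arrays numbered 3 (scores 50.2 and 53.25) apart from WT arrays 1 and 2 and TG array 2 (-34.3 to -32.7), with TG array 1 at -2.78.

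**Figure D4:**
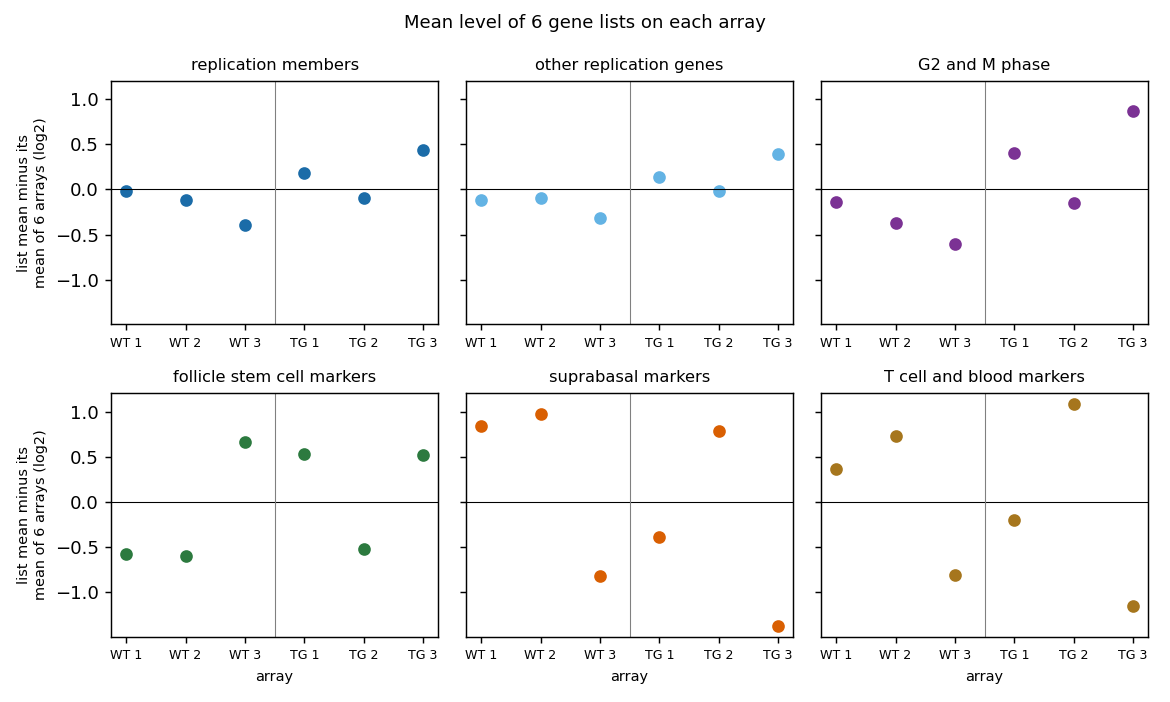
Each panel gives, for 1 gene list, its mean log2 value on each array minus its mean over the 6 arrays, with WT arrays left and TG arrays right of the grey line. The replication and G2 and M phase lists are lowest on WT array 3 and highest on TG array 3, while the stem cell, suprabasal and T cell lists put both arrays numbered 3 on the same side.

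The rest of the replication pathway read much like the members. Of 64 further genes of replication and S phase, 60 were measured, and 57 had a difference above 0, with a median of 0.30 (log2). Of all genes, 47.9% were above 0. At an unadjusted p under 0.05, 10 were higher in TG (16.7%) and 0 lower, where 1.93% of all genes were higher and 0.843% lower. With the replicate number as a block 16 were higher (26.7%), beside 4.59% of all genes. In both fits 0 passed the adjusted threshold in limma. Without both arrays numbered 3 the count was 4, beside 3.32% of all genes, and the median 0.17. Without TG array 3 the count was 6, beside 1.98% of all genes. Among 29 genes of initiation and the fork, Ticrr, which encodes the firing factor treslin, differed by 0.74 ± 0.21 (SE), Pole3, a small subunit of polymerase epsilon, by 0.50 ± 0.19 and Tipin, of the fork protection complex, by 0.94 ± 0.36. Among 9 genes of nucleotide supply, Shmt1, of folate metabolism, differed by 0.40 ± 0.13, Nme1, a nucleoside diphosphate kinase gene, by 0.59 ± 0.20 and the pyrimidine synthesis gene Umps by 0.58 ± 0.20. Among 22 genes of S phase control, Skp2, whose ubiquitin ligase removes CDK inhibitors, differed by 0.61 ± 0.14, Dtl, whose ligase destroys Cdt1 in S phase, by 0.55 ± 0.18 and the chromatin ATPase gene Atad2 by 0.50 ± 0.18. These 9 genes were picked by the smallest p, and in none of them did the genotypes overlap. Over all 60 genes, each TG array exceeded each WT array for 12 (20%), against 3.99% of all genes.

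Genes of G2 and M phase, the part of the cycle that follows, had larger TG minus WT differences on the same arrays. All 19 measured genes differed by more than 0, beside 47.9% of all genes, with a median of 0.71 (log2). At an unadjusted p under 0.05, 12 were higher in TG, beside 1.93% of all genes. After adjustment over all genes 0 of the 19 passed 0.05, and their lowest adjusted p was 0.99996 in limma. Within replicate numbers 1, 2 and 3 their medians were 0.55, 0.18 and 1.45, against 0.19, 0.029 and 0.88 for the members. Mki67, a general marker of cycling cells, read 10.46, 10.22 and 10.15 in WT and 10.65, 10.36 and 11.38 in TG, a difference of 0.52 ± 0.27 (SE). The difference between the lists was not tested.

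Rfc4, a clamp loader subunit, and Ccne2, cyclin E2, were read only by features annotated to a second gene as well, so part of the signal may come from that gene. The feature shared by Rfc4 and Eif4a2 read 7.86, 7.81 and 7.59 (log2) in WT and 8.29, 7.93 and 8.78 in TG, a difference of 0.58. The feature shared by Ccne2 and Ints8 read 7.50, 7.72 and 7.48 in WT and 8.35, 7.84 and 8.96 in TG, a difference of 0.81. Both lay higher on every TG array than on any WT array, with TG array 3 highest and TG array 2 lowest of the TG arrays. That order of the TG arrays held for 33 of the 46 measured members (71.7%), against 22.0% of all genes.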

How the data were processed

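The deposited table holds log2-scale values, 1 per array and feature; the scale was read from the values (2.85 to 14.42, array medians 5.90 to 5.99), and neither the log base nor the summarisation or scaling is given in the sources used here. Per the submitters' processing notes, the tools were Transcriptome Analysis Console and Expression Console 1.4.1, with no settings named. Fold changes hold only for a base of 2. Of 41345 features, 23521 had exactly 1 symbol in the platform annotation, 1814 several and 16010 none; taking the brightest feature per gene left 22180 genes, with no filter on low values. Without detection values no gene was called absent, and levels were not compared between genes.

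TG minus WT was fitted across all 22180 genes by lmFit and eBayes of limma 3.58.1 under R 4.3.3 (genotype as the only term, two-sided; Benjamini-Hochberg adjustment, threshold 0.05), after the code was tested on simulated data. SE is that of the moderated fit. The members, the other lists and the named genes were chosen with earlier results of these data known, and lists are described by counts and medians with no set test. Values on every array are given for Mcm2 to Mcm7, Pcna, the member with the smallest p of each role, and members below 0 or with an unadjusted p under 0.05; of each further replication list, the 3 genes with the smallest p are named. Replicate numbers 1, 2 and 3 occur in both genotypes. Between arrays of 1 number, the deviations from the genotype mean correlated at 0.20, 0.67 and 0.74. Each exceeded the limit of 0.1, and an alternative fit took the numbers as pairs; no shared litter or day stands in the labels, and WT array 1 correlated more with TG array 2 (0.50). The number of arrays limits the precision.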

Additional observations from a re-analysis of the deposited data

How the results depend on the processing

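Every member stayed short of the adjusted threshold under the 15 alternatives, and 29 of 46 members kept the sign of their difference in all of them. Under the replicate block the count of members higher at an unadjusted p under 0.05 was 10 and that of the other replication genes 16, beside 4.59% of all genes. Of the members and the other replication genes, 0 passed the adjusted threshold in the paired fit. Leaving out 1 array at a time gave 2 to 19 members higher at an unadjusted p under 0.05, where 0.843% to 2.61% of all genes were. All TG arrays lay above the WT arrays for 10 to 28 members, beside 5.59% to 10.6% of all genes, and below for 0 to 1. The share of all genes below was not counted in these fits, so the counts below cannot be judged. These fits gave 6 to 15 other replication genes higher, and 0 to 1 of all genes past the adjusted threshold (0 without TG array 1). Without both arrays numbered 3 there were 2 members higher (3.32% of all genes), 11 with all TG arrays above (17.1% of all genes) and 2 with all below. For that last count, too, the share of all genes was not counted. In that fit 4 other replication genes were higher, 0 of all genes passed the threshold, and the members' median was 0.11. Quantile normalization and the filter on genes above the median level each left 4 members, beside 1.70% of all genes and 2.59% of the genes kept. No moderation left 4 members (1.88% of all genes), 6 other replication genes and 0 of all genes past the threshold. Array weights gave 15 members and 17 other replication genes, where 7.90% of all genes were higher.

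Signs turned without both arrays numbered 3 for Mcm2 (-0.053), Mcm5 (-0.023), Gins3 (-0.14), Gins4 (-0.0075), Pola2 (-0.12), Prim2 (-0.22), Pold2 (-0.14), Pold3 (0.074), Pole (-0.22), Rfc2 (-0.029), Fen1 (-0.29), Tyms (-0.078), Ccne1 (-0.23), Chaf1a (-0.086), Dnmt1 (-0.070) and Slbp (-0.028). With array weights they turned for Orc6 (0.074), Gins3 (-0.0535), Prim2 (-0.033), Pold3 (0.10), Pole (-0.0035), Fen1 (-0.20), Ccne1 (-0.089) and Dnmt1 (-0.0065). Leaving out 1 array gave a range across 0 for Orc6 (-0.12 to 0.12), Gins3 (-0.093 to 0.34), Gins4 (-0.033 to 0.26), Pola2 (-0.013 to 0.46), Pold2 (-0.076 to 0.47), Pold3 (-0.16 to 0.11), Pole (-0.095 to 0.49), Fen1 (-0.17 to 0.35), Tyms (-0.020 to 0.29), Ccne1 (-0.30 to 0.39) and Dnmt1 (-0.097 to 0.35). The cause was not tested. With only the bases before the start, the share of members' windows with an E2F motif was 21.3%. In that stretch the shares were 2.35% of tested genes' windows and 25.9% of the other replication genes' windows.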

Other observations

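Several members have a second feature, which was not used above. The second feature of Rrm2 differed by 0.57 (log2) beside 0.55 for the brighter one, that of Rpa3 by 0.54 beside 0.39, that of Fen1 by 0.24 beside 0.15 and that of Rpa1 by 0.22 beside 0.30. That of Rrm2 read 4.18, 4.30 and 4.22 in WT and 4.31, 4.71 and 5.39 in TG, below the array medians of 5.90 to 5.99. That of Rpa1 read 5.35, 5.33 and 5.04 in WT and 6.03, 5.42 and 4.91 in TG. It was lowest on TG array 3, where the brighter feature was highest. That of Pole read 5.34, 4.96 and 4.67 in WT and 5.18, 5.004 and 4.69 in TG, a difference of -0.033 beside 0.23 for the brighter feature. The features of Pole thus differ in sign, but the second lay below the array medians on every array, and its difference was not tested.

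Mcm7 hosts microRNA genes, and features annotated jointly to it and a microRNA did not follow the Mcm7 feature. The one shared with Mir25 read 6.58, 6.22 and 6.48 (log2) in WT and 6.49, 6.33 and 6.37 in TG, a difference of -0.032, and the one shared with Mir93 differed by -0.17, while the feature of Mcm7 alone differed by 0.54. A feature shared by Tyms and its pseudogene Tyms-ps differed by -0.074 beside 0.16 for Tyms alone. The features shared with Mir93 and with Tyms-ps lay below the array medians of 5.90 to 5.99 on every array. Neither the microRNA features nor the pseudogene feature was tested.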
